A study of Rattus norvegicus with 9 samples.

Results

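The data compared the spinal cord of rats with a contusion injury (SCI group) with that of sham-operated rats (Sham group) at 35 days post-injury (dpi), a chronic stage. The members are the 6 of 9 libraries that the submitters labelled as the model and control groups, with 3 rats in each, and the 17822 of 30507 rows of the count table that passed a filter on low counts. Both groups were female wild-type Sprague-Dawley rats, 8 weeks old when they were obtained. SCI rats had a contusion of 150 kdyn at T10 and carried a connector plug at the neck with no electrode implanted. Sham rats had the laminectomy alone by the study's methods, although their labels read no treatment. The tissue was the whole T9 to T11 cord segment after perfusion with saline, so it held the injury site, grey and white matter and whatever roots and membranes came with it. The libraries of the third group, injured rats under spinal cord stimulation, were not compared here. The question addressed was which cell types, pathways and gene families differ in the chronically injured cord.

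A contusion destroys neurons and oligodendrocytes at the impact site, and blood-borne macrophages and resident microglia then clear myelin, which is rich in cholesterol. Around the lesion, astrocytes form a border, while fibroblasts from the meninges and vessels lay down collagen in the core. Schwann cells can enter from the roots and myelinate axons within the cord. In whole tissue, fewer cells of a type and less RNA per cell cannot be told apart, and this holds for every level below.

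The libraries held from 65974085 to 88358570 gene counts. Levels are given as CPM, counts scaled to the library size with TMM normalization, and 3 counts, the smallest level read here, came to 0.0341 to 0.0474 CPM. These floors cover counting error only. The first principal component of log2 CPM held 69.8% of the variance and parted the groups, and correlations between libraries of a group lay between 0.9591 and 0.9743. The 10 most abundant genes took 15.5 to 19.8% of the counts. Defining markers of cord tissue were present in every library. The summed level of 20 oligodendrocyte genes was at least 19033 CPM, that of 19 astrocyte genes at least 12270 CPM and that of 20 neuron genes at least 1705 CPM. Markers of tissue outside the cord differed between libraries of a group. The skeletal muscle list was high in SCI replicates 1 and 3, and the sensory ganglion list in Sham replicate 2. The fibroblast and meninges list, whose cells can also be part of the lesion, ran from 1358 to 11848 CPM in sum among Sham rats. These values stand beside the results they touch, and their part in the results was not tested.

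A gene was counted as differentially expressed (DEG) where |log2FC| was above 1 and p, adjusted by Benjamini-Hochberg over all genes tested, was below 0.05 in edgeR's quasi-likelihood test. Of the 17822 genes tested, 4800 were DEGs (26.9%), with 2385 higher (13.4%) and 2415 lower (13.6%) in the SCI group. These shares are the background for the counts of each list below. For 11313 of the genes tested (63.5%), the libraries of the groups did not overlap, so a lack of overlap was common. The median log2FC was 0.02, as TMM normalization sets it near 0. The change exceeded 4-fold for 827 of the higher and 806 of the lower DEGs. Genes called higher took 5.4% of the summed mean CPM of all genes tested in the Sham group and 18.9% in the SCI group. Genes called lower took 22.5% and 7.79%. For 2486 genes (13.9%), the 95% interval of the log2FC lay within 0.5 of 0, so the groups differed little for these. Lists are given by their counts and medians without a test of the list, since lists and members were chosen with results of these data known.

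**Figure D1:**
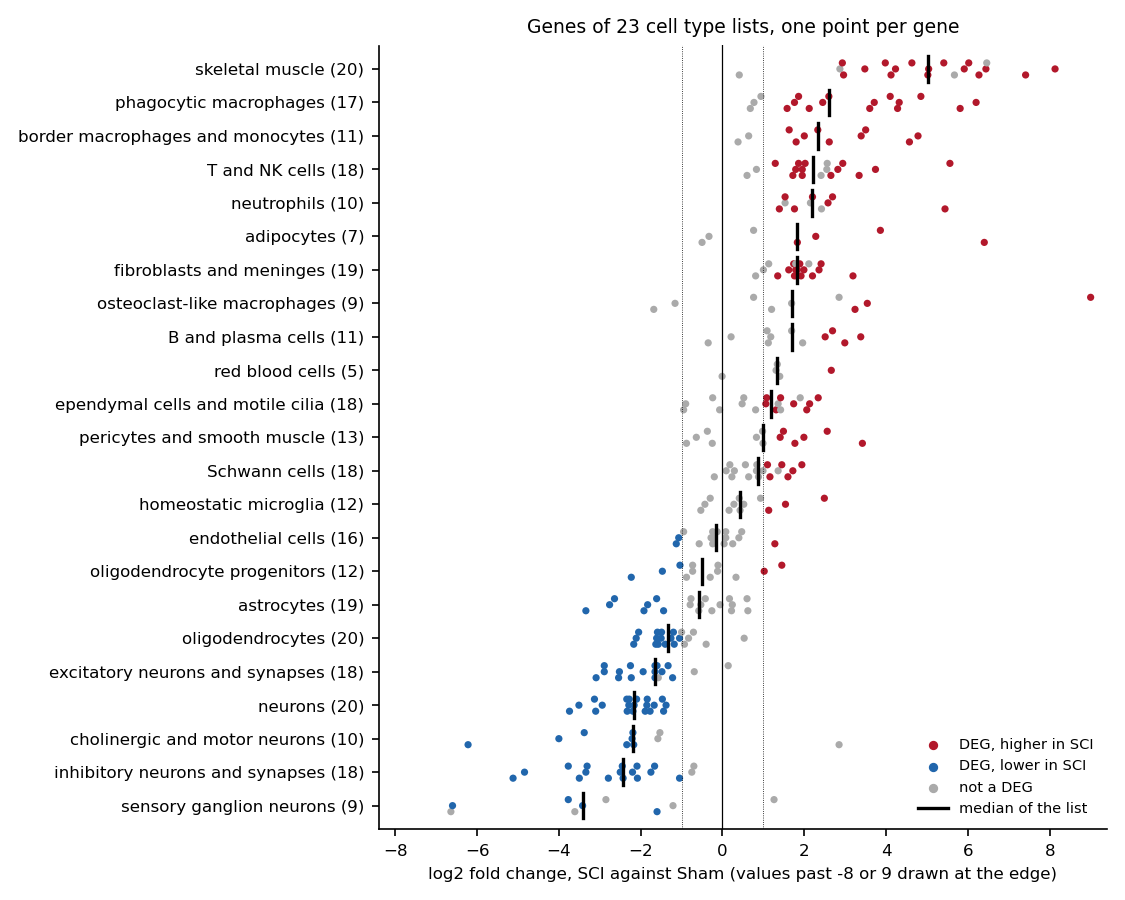
Log2 fold change of SCI against Sham (x axis) for each tested gene of 23 cell type lists (y axis, number of genes tested in parentheses), with DEGs in red or blue, other genes in grey and the median of each list as a black bar. All 20 neuron genes lie below -1, the macrophage, T cell and fibroblast lists lie mostly above 1, and the endothelial list is centred near 0 with a median of -0.17.

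Neuronal transcripts were lower after SCI throughout. Of 20 pan-neuronal genes, all 20 fell, with log2FC between -3.74 and -1.38 and a median of -2.17, against 0.02 over all genes. Their summed level was 18015, 11933 and 8621 CPM in the Sham rats and 4405, 2748 and 1705 CPM in the SCI rats. No SCI library reached the lowest Sham library, and levels among Sham rats varied by about as much as among SCI rats (coefficients of variation 37.1% and 46.1%). Snap25, a SNARE protein of synaptic vesicle fusion, was at 2232, 1481 and 1335 CPM in the Sham rats and 592, 358 and 180 CPM in the SCI rats (log2FC -2.16, SE 0.45, adjusted p = 0.00876). Rbfox3, which encodes the nuclear antigen NeuN, was 3.41-fold lower. Map2, a dendritic microtubule protein, had the largest change of the list and was 13.3-fold lower. The neurofilament genes Nefm and Nefl were 7.67-fold and 8.78-fold lower. They were among the 10 DEGs that lost the most counts, as were the tubulin gene Tuba1a and Zwint (2.05-fold and 3.48-fold lower).

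Genes of the synapse fell in nearly every class. Of 24 genes of vesicle release, 23 fell (median log2FC -2.10). Syt2, the calcium sensor of fast release, was at 54.5, 43.7 and 25.2 CPM in the Sham rats and 9.17, 5.50 and 3.10 CPM in the SCI rats. Every SCI rat was below every Sham rat, and the level was 6.95-fold lower. Rims1, an active zone scaffold, was 17.2-fold lower (log2FC -4.10, SE 0.46), and Stx1a, a SNARE protein of the plasma membrane, 2.50-fold lower. Leaving out each library in turn left 21 to 23 of the 24 genes called.

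Inhibitory and excitatory genes both fell. Of 18 genes of inhibitory neurons and synapses, 16 fell (median log2FC -2.44), and of 18 of excitatory ones, 15 fell (median -1.65). Gad1, which makes GABA, was at 121, 70.2 and 63.8 CPM in the Sham rats and 29.6, 28.3 and 17.8 CPM in the SCI rats. Slc32a1, the vesicular transporter of GABA and glycine, was 5.4-fold lower. Slc17a6, the vesicular glutamate transporter of spinal neurons, was at 160, 132 and 96.0 CPM in the Sham rats and 34.7, 27.2 and 19.7 CPM in the SCI rats. The NMDA receptor subunit Grin1 was 4.69-fold and the metabotropic receptor Grm5 8.52-fold lower. Whether the inhibitory and excitatory lists differed from each other was not tested.

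Of 10 genes of cholinergic and motor neurons, 7 fell. Chat, which makes acetylcholine, was at 34.4, 11.9 and 11.6 CPM in the Sham rats and 6.98, 3.17 and 1.26 CPM in the SCI rats (log2FC -2.34, SE 0.71, adjusted p = 0.0331). Sham replicate 1 stood above the other Sham rats, and all SCI rats were below them. The call for Chat was lost without Sham replicate 1 or 2 or SCI replicate 2 or 3 (adjusted p 0.05 to 0.101, log2FC still -1.63 or below). Isl1, a factor of motor neurons that sensory ganglion neurons also express, had 37, 211 and 30 counts in the Sham rats and 3, 0 and 0 in the SCI rats. Its highest value was in Sham replicate 2, the library with ganglion markers. Mmp9, which the list holds as a marker of fast motor neurons and which white blood cells also express, had 0.182 CPM in the Sham and 1.36 CPM in the SCI group and was not called (adjusted p = 0.0511).

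Ion channel genes followed the neuronal lists. Of 23 voltage-gated sodium and potassium channel genes, 21 fell (median log2FC -1.80). Kcna1, a potassium channel of axons, was at 370, 332 and 226 CPM in the Sham rats and 94.1, 101 and 101 CPM in the SCI rats, with no overlap and nearly equal values among SCI rats. The sodium channel genes Scn1a and Scn8a were 3.79-fold and 11.7-fold lower, and Scn1a lost its call without SCI replicate 2 (adjusted p = 0.0545). Of 19 calcium channel genes, 11 fell (median log2FC -1.08). Cacna1b, the pore of N-type channels, was 3.64-fold lower. Cacna1a, the pore of P/Q-type channels, was 2.11-fold lower (log2FC -1.08) and dropped under the fold threshold without Sham replicate 1 (log2FC -0.84) or SCI replicate 3 (-0.95). Cacng2, an auxiliary subunit of AMPA receptors, was at 3.61 ± 1.54 CPM in Sham and 0.27 ± 0.337 CPM in SCI rats (SD, n = 3 each). It lost its call without Sham replicate 1 or 2 or SCI replicate 1 (adjusted p 0.0691 to 0.0913).

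Of 18 neuropeptide genes of the dorsal horn, 13 fell and none rose (median log2FC -1.23). Tac1, which encodes substance P, was at 30.8, 32.1 and 17.7 CPM in the Sham rats and 6.21, 7.41 and 6.31 CPM in the SCI rats. Penk, the enkephalin precursor, was 2.77-fold lower (log2FC -1.47, SE 0.25). Calca, which encodes calcitonin gene-related peptide in sensory and motor neurons, was at 65.4, 142 and 23.3 CPM in the Sham rats and 13.5, 11 and 8.24 CPM in the SCI rats. Its highest Sham value was again in replicate 2. Without that library 10 of the 18 genes were called. Leaving out each library in turn left 9 to 13 calls, fewest without SCI replicate 3.

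Of 18 genes of the perineuronal net, the matrix around fast-spiking neurons, and of related proteoglycans, 5 fell and 3 rose. Hapln1, which links hyaluronan to proteoglycans, was 15.7-fold lower, at 2.84, 3.63 and 1.59 CPM in the Sham rats and 0.288, 0.0846 and 0.142 CPM in the SCI rats. Acan, the core proteoglycan of the net, was 4.69-fold lower. Bgn, a small proteoglycan of connective tissue, was 4.11-fold higher, at 39.4, 105 and 185 CPM in the Sham rats and 363, 518 and 475 CPM in the SCI rats. The 3 higher calls were reduced to 1 without Sham replicate 1 and to 0 without Sham replicate 2, SCI replicate 2 or SCI replicate 3, where Bgn had adjusted p values of 0.0525 to 0.0648. In the same fits, 5 to 7 genes were called lower. Named after their values were seen, the other genes that fell were Hapln4, Tnr and Xylt1, and the other genes that rose were Tnc and Chsy1.

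**Figure D2:**
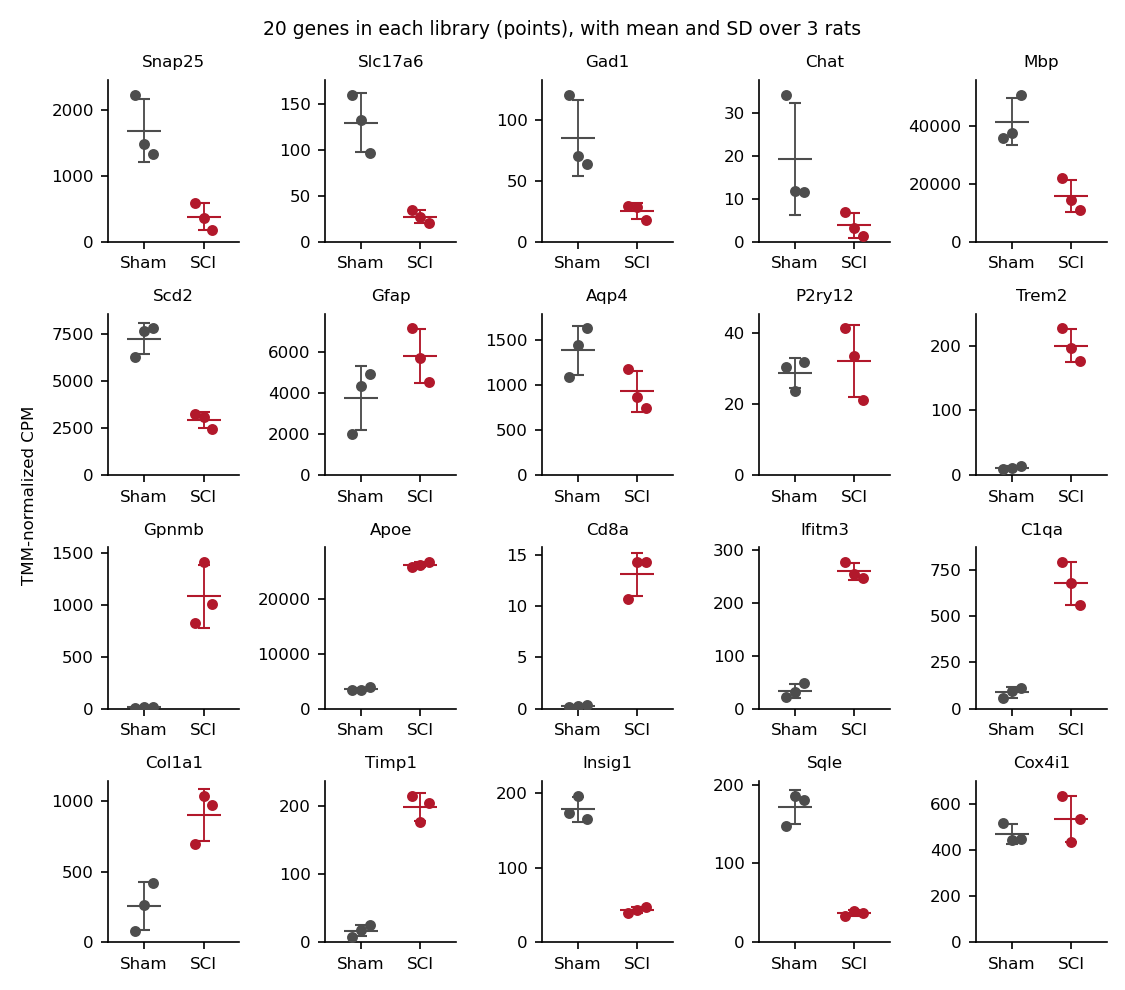
TMM-normalized CPM (y axis, linear from 0) of 20 genes in each of 3 Sham and 3 SCI libraries (points in the order of replicates 1, 2 and 3), with the mean and SD. Neuronal and myelin genes are lower and Trem2, Gpnmb, Apoe, Cd8a and C1qa higher in all SCI libraries, while Gfap, Aqp4, P2ry12 and Cox4i1 overlap between the groups.

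Myelin genes fell. Of 20 oligodendrocyte genes, 14 fell and none rose (median log2FC -1.33). The mean summed level of the list went from 72688 CPM in the Sham to 26164 CPM in the SCI group. Mbp, myelin basic protein, which Schwann cells also make, was at 35882, 37657 and 50771 CPM in the Sham rats and 21800, 14322 and 11039 CPM in the SCI rats. Its log2FC was -1.40 (SE 0.34, adjusted p = 0.016), and the call was lost without SCI replicate 2 or 3 (adjusted p 0.0697 at most). Other DEGs among those that lost most counts were Scd2, a fatty acid desaturase (2.47-fold lower), the tubulin gene Tubb4a (2.74-fold) and Aplp1, of the amyloid precursor family (2.32-fold). Scd, the paralogous desaturase, was 13.1-fold lower, at 185 ± 60.7 CPM in Sham and 14.1 ± 0.954 CPM in SCI rats (SD, n = 3 each).

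The 12 tested genes of oligodendrocyte progenitors were mixed, with 2 higher, 3 lower and 7 not called. Gpr17, a receptor of progenitors committed to differentiate, was 4.68-fold lower, at 40.5, 53.1 and 56.8 CPM in the Sham rats and 10.5, 14 and 7.67 CPM in the SCI rats. C1ql1, a secreted protein of progenitors, was 2.73-fold higher. Cspg4, which encodes NG2, was at 36.3 ± 5.46 and 45.6 ± 11 CPM (SD, n = 3 each) with overlapping libraries. Pdgfra, the growth factor receptor of progenitors and also of fibroblasts, had a log2FC of 1.02 and lost its call without Sham replicate 1 or 2 or SCI replicate 2 or 3 (log2FC 0.78 to 1.06, adjusted p 0.0538 to 0.1). The higher count was then 1. The lower count was 1 without Sham replicate 2 and 5 without SCI replicate 1.

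Astrocyte genes were lower in part. None of 19 rose and 7 fell (median log2FC -0.58), and the summed level of the list overlapped between the groups at 14883 ± 1857 CPM in the Sham and 14368 ± 2648 CPM in the SCI group (SD, n = 3). Gfap, the filament protein of astrocytes, was at 2001, 4351 and 4951 CPM in the Sham rats and 7158, 5719 and 4533 CPM in the SCI rats. The groups overlapped, and the log2FC of 0.62 had a 95% interval from -0.25 to 1.5. Aqp4, the water channel of astrocyte endfeet, was not called either (log2FC -0.58, interval -1.12 to -0.03). Genes of transporters and channels were among the 7 that fell, but Aqp4, of the same class, was not. The share of this class in the list was not counted, so no concentration in it can be read. Slc6a11, a GABA transporter, was 10.1-fold lower, at 58.9, 43.9 and 21.7 CPM in the Sham rats and 3.65, 4.86 and 3.78 CPM in the SCI rats. Chosen after their values were seen, the potassium channel gene Kcnj10 was 3.79-fold lower, the glutamate transporter gene Slc1a2 3.05-fold lower and the bicarbonate transporter gene Slc4a4 6.23-fold lower. Also chosen then, the gap junction gene Gja1 and the glutamine synthetase gene Glul had log2FC of 0.17 and 0.24, with intervals reaching 0.59 in both.

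Genes of the reactive astrocyte response were higher. Of 17 tested, 11 rose and none fell (median log2FC 1.29), and their summed level was 645 to 1743 CPM in the Sham rats and 4806 to 5421 CPM in the SCI rats. Timp1, an inhibitor of metalloproteinases, was at 8.36, 18.2 and 25.8 CPM in the Sham rats and 216, 177 and 205 CPM in the SCI rats, which is 11.4-fold higher. Vim, the filament protein vimentin, was at 198, 644 and 998 CPM in the Sham rats and 2662, 3170 and 3714 CPM in the SCI rats. Vim alone had a mean of 613 CPM in the Sham and 3182 CPM in the SCI group. The mean sum of the list was 1232 and 5099 CPM, so Vim made up much of it. Other cells of the scar also express Vim and Timp1. Lcn2, a secreted iron-carrier protein chosen after its values were seen, was 5.88-fold higher. Serpina3n, a common marker of reactive astrocytes, had 4 counts in 1 Sham library and 0 elsewhere, so these rows say nothing of it.

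Cholesterol metabolism changed in opposite directions for synthesis and export. Of 24 genes of cholesterol synthesis and uptake, 20 fell and none rose (median log2FC -1.84, lowest -2.65). Their summed level was 3635, 4395 and 4424 CPM in the Sham rats and 1055, 1125 and 1076 CPM in the SCI rats, a spread of 3.32% among the latter. Leaving out each library in turn left 20 or 21 calls. Sqle, which catalyses the first oxygenation step, was at 147, 186 and 181 CPM in the Sham rats and 33.1, 40.4 and 37.4 CPM in the SCI rats (log2FC -2.21, SE 0.14, adjusted p = 0.000817). Hsd17b7, a late enzyme of the pathway, was 6.29-fold lower. Among members chosen after their values were seen, Hmgcs1 was 5.71-fold lower. Insig1, a sterol-regulated brake on the pathway, was 4.13-fold lower. Srebf2, the transcription factor that drives these genes, was 1.93-fold lower (log2FC -0.95, SE 0.09), under the fold threshold.

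Of 14 genes of cholesterol efflux and storage, 11 rose and 1 fell (median log2FC 1.70). Apoe, the main lipoprotein of the nervous system, was at 3381, 3445 and 3886 CPM in the Sham rats and 25847, 26190 and 26758 CPM in the SCI rats (log2FC 2.88, SE 0.21, adjusted p = 0.000998). It gained more counts than any other DEG with a symbol, and SCI rats differed by only a few percent. Abca1, the efflux pump, was 3.83-fold higher, at 21.8 to 45.9 CPM in the SCI rats and 6.51 to 8.95 CPM in the Sham rats. Abcg1, a related pump, was at 43.1 ± 5.86 and 40 ± 12.7 CPM (SD, n = 3 each) with overlapping libraries. Nceh1, which hydrolyses stored cholesterol esters, was 2.2-fold lower. The remaining genes here were chosen after their values were seen. Soat1, which makes cholesterol esters, was 3.19-fold higher, and Nr1h3, the sterol-sensing receptor LXR-alpha, 3.06-fold higher. Apoc1 was 5.35-fold higher, while Apoc2 had 0 counts in every Sham rat and 37, 27 and 23 counts in the SCI rats. Against a floor of 3 counts per library, Apoc2 was at least 10.1-fold higher.

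**Figure D3:**
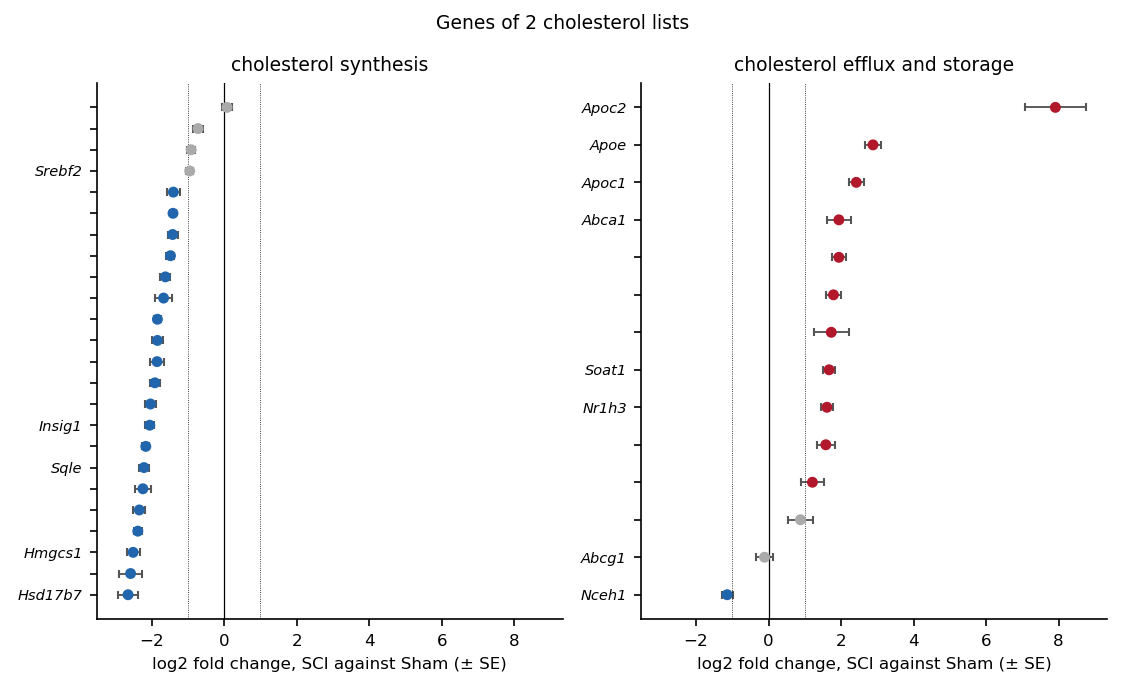
Log2 fold change of SCI against Sham (x axis, with the standard error) for each tested gene of cholesterol synthesis and uptake (left) and of efflux and storage (right). Genes with values in the text carry their symbol. DEGs are in red or blue and other genes in grey. Of the left list 20 of 24 genes lie below -1, and of the right list 11 of 14 lie above 1 (the point of Apoc2 is a fitted value against 0 counts).

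Genes of phagocytic macrophages had the highest median of the cell type lists after skeletal muscle. Of 17 tested genes, 14 rose and none fell (median log2FC 2.60), and each left-out library gave 14 as well. Gpnmb, a glycoprotein of lipid-laden macrophages (files: chromosome 4 from 78010197 to 78049367), was at 8.77, 14.3 and 21.1 CPM in the Sham rats and 822, 1411 and 1008 CPM in the SCI rats. This was 73.4-fold higher (log2FC 6.20, SE 0.43, adjusted p = 0.000976). Cd68, a lysosomal glycoprotein, was at 1.93, 4.07 and 8.45 CPM in the Sham rats and 254, 307 and 255 CPM in the SCI rats. No Sham rat came near the SCI rats for either gene. Lilrb4, an inhibitory receptor of myeloid cells, was 101-fold higher. Lyz2 and Ctsb, a lysozyme and a lysosomal protease, were 8.90-fold and 3.62-fold higher and among the 10 largest gains in counts. Trem2, the lipid receptor of microglia and macrophages, with its adaptor Tyrobp and the lectin gene Lgals3, chosen after their values were seen, were 17.1-fold, 13.1-fold and 19.9-fold higher. Spp1, which encodes osteopontin and was also chosen then, was at 317, 233 and 198 CPM in the Sham rats and 290, 589 and 319 CPM in the SCI rats and was not called (log2FC 0.68, interval -0.07 to 1.43).

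Genes of homeostatic microglia changed less. Of 12 tested, 3 rose and none fell (median log2FC 0.42). Their summed level was 844, 876 and 1043 CPM in the Sham rats and 1377, 1328 and 1098 CPM in the SCI rats. P2ry12, the purinergic receptor of resting microglia, was at 30.5, 23.8 and 31.8 CPM in the Sham rats and 41.3, 33.5 and 21.2 CPM in the SCI rats, with a 95% interval of its log2FC from -0.44 to 0.76. Tmem119, a membrane protein of resident microglia, was at 31.8 ± 5.17 and 42.2 ± 8.92 CPM (SD, n = 3 each) and overlapped too. Olfml3, a secreted protein of the list, was 5.62-fold higher. Within libraries, the FPKM of Trem2 was 0.64 to 1.05 times that of P2ry12 in the Sham rats and 12.6 to 19.3 times in the SCI rats.

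Other macrophage genes included those of osteoclasts. Of 9 tested genes of the osteoclast-like list, 3 rose and none fell (5 rose without Sham replicate 3, and 1 fell without SCI replicate 1). Atp6v0d2, a proton pump subunit needed for osteoclast and macrophage fusion, had 0 counts in every Sham rat and 697, 595 and 522 counts in the SCI rats, at least 212-fold higher against 3 counts per library. Acp5, tartrate-resistant acid phosphatase, was at 0.869, 2.16 and 3.18 CPM in the Sham rats and 15.5, 23.6 and 19.9 CPM in the SCI rats. Ctsk, the collagen-degrading cathepsin, chosen after its values were seen, was 11.7-fold higher. The other genes of the list were not called, among them the receptor gene Calcr, which had the lowest log2FC at -1.68. Of 11 genes of border macrophages and monocytes, 9 rose, and 5 did without SCI replicate 3. Siglec1, a sialic acid receptor, was 27.8-fold higher, at 0.616, 0.717 and 2.43 CPM in the Sham rats and 23.6, 44.2 and 37 CPM in the SCI rats. Mrc1, the mannose receptor, was 4.01-fold higher and lost its call without SCI replicate 3 (adjusted p = 0.0521). Cd163, the haemoglobin scavenger receptor, was at 6.20 ± 2.89 and 9.64 ± 3.10 CPM (SD, n = 3 each) and was not called.

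Lysosomal genes rose in part. Of 38 tested, 17 rose and none fell (median log2FC 0.87). With each library left out 16 or 17 rose, and 1 fell without Sham replicate 1 or SCI replicate 2. Ctsd, the main aspartic protease, was at 441, 471 and 447 CPM in the Sham rats and 1372, 1784 and 1378 CPM in the SCI rats. Ctsz, a carboxypeptidase, was 4.74-fold higher. Lamp1, the structural membrane protein, was not called, with log2FC 0.29 and an interval from 0.02 to 0.56. Most genes of the proton pump that acidifies lysosomes and synaptic vesicles were not called. Of 18 V-ATPase genes, 2 rose (11.1%, against 13.4% of all genes). A further 5 fell (27.8%, against 13.6%) and 11 were not called. Tcirg1, which encodes the a3 subunit of macrophages and osteoclasts, was at 21, 24.5 and 29.3 CPM in the Sham rats and 101, 109 and 102 CPM in the SCI rats. Atp6v1g2, a subunit of neurons, was 3.96-fold lower, and Atp6v1a, the catalytic subunit, 2.74-fold lower, at 280, 245 and 182 CPM in the Sham rats and 83.2, 88.0 and 86.7 CPM in the SCI rats. The ring subunit Atp6v0c was not called (log2FC -0.31). Atp6v0a1, the a1 subunit of neurons, chosen after its values were seen, was 2.18-fold lower. The FPKM of Tcirg1 was 0.118 to 0.235 times that of Atp6v0a1 in the Sham rats and 1.41 to 1.66 times in the SCI rats.

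Most complement genes were higher. Of 22 tested, 17 rose and none fell (median log2FC 2.14). C1qa, a chain of the recognition molecule C1q, was at 58.4, 94.2 and 114 CPM in the Sham rats and 793, 678 and 561 CPM in the SCI rats (log2FC 2.93, SE 0.28, adjusted p = 0.00129). Cfd, the protease of the alternative pathway, which fat cells also make, was 14.5-fold higher. Cfb and C4b, chosen after their values were seen, were 8.66-fold and 5.86-fold higher, and C4b shares sequence with its close copy C4a, so its counts are uncertain. C3, the central component, was at 66.9, 80.4 and 131 CPM in the Sham rats and 256, 159 and 81.8 CPM in the SCI rats. It overlapped and was not called (adjusted p = 0.152). Clu, a regulator of complement and lipid carrier, was 2.47-fold higher and lost its call without Sham replicate 2 (adjusted p = 0.0525).

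Of 23 tested genes of iron handling and oxidative stress, 8 rose and 1 fell. Hmox1, haem oxygenase 1, was at 15.2, 17.4 and 18.1 CPM in the Sham rats and 80.3, 88.2 and 60.5 CPM in the SCI rats. Ftl1, the light chain of ferritin, was 6.43-fold higher and among the 5 largest gains in counts. Fth1, the heavy chain, chosen after its values were seen, was at 6261 ± 1477 and 7962 ± 985 CPM (SD, n = 3 each), with overlapping libraries. Tfrc, the receptor for iron uptake, fell to 37.4 ± 5.35 CPM from 112 ± 2.01 CPM (SD, n = 3 each). Genes of the phagocyte NADPH oxidase are part of the list. Cyba and Ncf1, subunits chosen after their values were seen, were 10.5-fold and 6.83-fold higher. Cybb, the catalytic subunit, was at 1.90, 3.65 and 7.31 CPM in the Sham rats and 6.84, 17.3 and 13.1 CPM in the SCI rats and was not called (adjusted p = 0.0551).

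Interferon-stimulated genes and antigen presentation were higher. Of 30 tested genes of the interferon response, 23 rose and none fell (median log2FC 1.52). Without Sham replicate 2 or SCI replicate 2, 14 of the 30 were called higher. Without SCI replicate 1, 21 were called higher and 1 lower. Ifitm3, a membrane protein that restricts virus entry, was at 21.8, 32.5 and 48.1 CPM in the Sham rats and 278, 255 and 247 CPM in the SCI rats (log2FC 2.93, SE 0.29, adjusted p = 0.00137). Irf7, a transcription factor of the response, was 4.6-fold higher, at 9.94, 7.19 and 17.8 CPM in the Sham rats and 54.1, 68.4 and 38.4 CPM in the SCI rats. Of 9 tested genes of MHC class I presentation, 8 rose, and 8 or 9 did with each library left out. B2m, the invariant light chain, was at 461, 532 and 647 CPM in the Sham rats and 1255, 1351 and 1179 CPM in the SCI rats. Tap1, the peptide transporter, was 3.63-fold higher, and Psmb9, a subunit of the immunoproteasome, 6.16-fold higher.

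Promoters of these genes are shown because members of both lists rose together. The sequences are from RefSeq (build GRCr8), 160 bases ending just before the annotated start, 5′ to 3′, with the letters of the interferon-stimulated response element core (GAAANNGAA on either strand) in capitals for the first 4 and those of the CLEAR element of lysosomal genes (TCACGTGA, the same on both strands) in capitals for the last 2.
Ifitm3 (chr1:205541759-205541918, minus strand): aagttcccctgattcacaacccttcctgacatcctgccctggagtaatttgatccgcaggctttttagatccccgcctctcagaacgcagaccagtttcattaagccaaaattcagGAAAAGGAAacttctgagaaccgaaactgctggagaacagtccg
Irf7 (chr1:205800024-205800183, minus strand): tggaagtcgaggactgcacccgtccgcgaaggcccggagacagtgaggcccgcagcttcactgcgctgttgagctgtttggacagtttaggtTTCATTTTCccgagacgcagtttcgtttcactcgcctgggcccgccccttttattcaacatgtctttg
B2m (chr3:129549170-129549329, plus strand): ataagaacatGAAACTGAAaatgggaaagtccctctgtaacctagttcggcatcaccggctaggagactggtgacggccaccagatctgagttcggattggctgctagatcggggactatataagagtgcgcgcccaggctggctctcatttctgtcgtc
Tap1 (chr20:4668544-4668703, minus strand): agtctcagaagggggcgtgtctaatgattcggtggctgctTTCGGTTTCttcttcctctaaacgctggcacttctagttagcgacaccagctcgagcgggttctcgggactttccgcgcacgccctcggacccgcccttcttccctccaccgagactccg
Ctsd (chr1:206968822-206968981, minus strand): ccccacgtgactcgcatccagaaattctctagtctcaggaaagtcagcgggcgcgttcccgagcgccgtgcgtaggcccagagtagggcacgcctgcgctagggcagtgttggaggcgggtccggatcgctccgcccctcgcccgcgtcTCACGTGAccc
Lamp1 (chr16:83075064-83075223, minus strand): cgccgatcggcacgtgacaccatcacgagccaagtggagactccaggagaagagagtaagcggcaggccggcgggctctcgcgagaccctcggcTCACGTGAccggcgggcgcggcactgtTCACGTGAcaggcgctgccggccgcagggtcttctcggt
In Ifitm3 the match begins 44 bases before the start, and in Tap1 it begins 120 bases before it. Over the window from 250 bases before to 50 after the start, 17 of 23 interferon response genes with a promoter in the table held the core (73.9%), and 5 of 7 MHC class I genes did (71.4%), against 9.71% of all 33469 promoters and 7.57% of those of genes tested. The CLEAR element was in 3 of 29 lysosomal promoters (10.3%), of which that of Ctsd belonged to a gene that rose and that of Lamp1 to a gene that was not called, and in 2 of 14 V-ATPase promoters, against 0.777% of all and 1.4% of those of genes tested. The third lysosomal promoter was that of Mcoln1, a cation channel gene that was not called (log2FC -0.36). The sterol element letters TCACNCCAC were in 0 of 17 promoters of cholesterol synthesis genes and in 1.12% of all. The PU.1 letters GAGGAAGT were in 0 of 10 promoters of phagocytic macrophage genes, in 0 of 7 of homeostatic microglia genes and in 2.42% of all. A match is a description of these windows.

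Genes of MHC class II presentation were higher by similar folds but with wide spread. Of 12 tested, 8 rose (median log2FC 1.90), and 5 did without SCI replicate 1 or 3. Cd74, the invariant chain, was at 24.3, 129 and 298 CPM in the Sham rats and 512, 750 and 362 CPM in the SCI rats. The groups did not overlap, but the Sham rats differed widely among themselves, and Cd74 was not called (log2FC 1.85, SE 0.80, adjusted p = 0.0966). RT1-Da, a class II alpha chain, had the same form (adjusted p = 0.126). Ifi30, a reductase of the antigen-processing compartment, was 7.61-fold higher with little spread, at 25.4 ± 6.56 and 193 ± 7.22 CPM (SD, n = 3 each).

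Lymphocyte genes were low in level and higher after SCI. Of 18 tested genes of T and NK cells, 13 rose and none fell (median log2FC 2.21). Cd8a, a co-receptor of cytotoxic T cells, was at 0.205, 0.25 and 0.364 CPM in the Sham rats and 10.7, 14.3 and 14.3 CPM in the SCI rats, from 13 to 32 counts and 851 to 1013 counts. This 47.9-fold difference (log2FC 5.56, SE 0.29, adjusted p = 0.000783) was larger than that of Cd3e, a chain of the T cell receptor complex, which was 7.73-fold higher at 1.66 to 2.37 CPM in the SCI rats. Rat macrophages can also express Cd8a. Of 11 tested genes of B and plasma cells, 4 rose. Cd79a, a chain of the B cell receptor, was at 0.158, 0.171 and 0.216 CPM in the Sham rats and 0.977, 0.930 and 1.22 CPM in the SCI rats. Cd22 was at 17.6, 2.37 and 4.74 CPM in the SCI rats, with SCI replicate 1 well above the others, and lost its call without Sham replicate 2 (adjusted p = 0.0655). Jchain, the joining chain of secreted antibodies, was not called (adjusted p = 0.131).

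Of 10 tested neutrophil genes, 7 rose. S100a8, an abundant calcium-binding protein of neutrophils, was at 0.269, 0.626 and 0.614 CPM in the Sham rats and 4.65, 2.86 and 2.33 CPM in the SCI rats, and its partner S100a9 was 6.02-fold higher. Mmp8, neutrophil collagenase, was at 2.57, 12.4 and 3.25 CPM in the SCI rats and no more than 0.307 CPM in the Sham rats. The summed level of the list was 7.25 CPM in the Sham and 31.4 CPM in the SCI group, far under that of the phagocytic macrophage list at 1661 and 7223 CPM. Of 14 tested genes of the inflammasome and pyroptosis, 10 rose, and 5 and 6 did without Sham replicate 2 and SCI replicate 2. Casp1, the protease that matures interleukin 1, was at 4.03, 4.4 and 5.63 CPM in the Sham rats and 20.6, 20.3 and 16.1 CPM in the SCI rats, and the adaptor Pycard was 5.66-fold higher. Nlrp3, the sensor, was 2.31-fold higher and lost its call without Sham replicate 1 or 2 or SCI replicate 1 or 2 (adjusted p 0.0764 to 0.107).

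**Figure D4:**
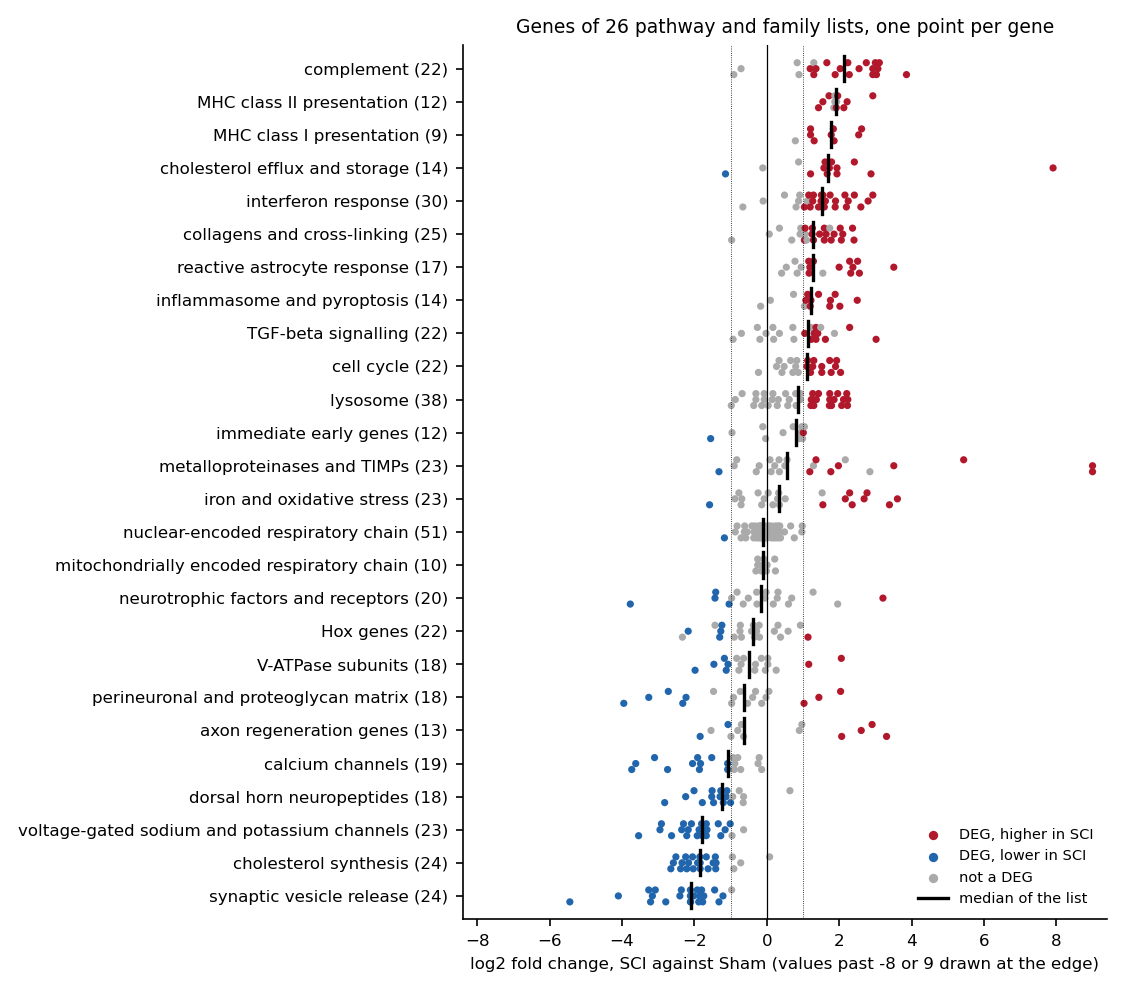
Log2 fold change of SCI against Sham (x axis) for each tested gene of 26 pathway and family lists (y axis, number of genes tested in parentheses), with DEGs in red or blue, other genes in grey and the median of each list as a black bar. Complement, antigen presentation, interferon and cholesterol efflux genes lie mostly above 1, synaptic vesicle, cholesterol synthesis and sodium and potassium channel genes below -1, and both respiratory chain lists have a median of -0.10.

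Fibrotic scar genes were higher with large differences among rats. Of 19 genes of fibroblasts and meninges, 14 rose and none fell (median log2FC 1.82). The count was 2, 8, 3 and 3 without Sham replicate 2, SCI replicate 1, SCI replicate 2 and SCI replicate 3. Col1a1, a chain of type I collagen, was at 79.7, 267 and 423 CPM in the Sham rats and 694, 1040 and 973 CPM in the SCI rats. The groups did not overlap, the log2FC was 1.82 (SE 0.56, adjusted p = 0.0339), and the call was lost without any of those 4 libraries (adjusted p 0.0536 to 0.0944). Dcn, a collagen-binding proteoglycan, was 3.07-fold higher and Col3a1, type III collagen, 5.31-fold. Both calls were lost without Sham replicate 2 or SCI replicate 2 or 3 (adjusted p 0.0525 to 0.0748). Fap, a protease of activated fibroblasts, was at 0.348, 1.16 and 1.5 CPM in the Sham rats and 6.19, 10.5 and 11.1 CPM in the SCI rats, which is 9.23-fold higher, and its call held with each library left out. Igfbp2, a growth factor-binding protein, was 6.28-fold higher and lost its call without Sham replicate 2 or SCI replicate 3 (adjusted p 0.0516 and 0.0653). In the Sham rats, the summed level of the list was 1358, 5873 and 11848 CPM, lowest in replicate 1. In the SCI rats the sum was 19804, 18439 and 40721 CPM, and Dcn was at 427, 669 and 848 CPM. The sum thus rests largely on members not named here and does not follow Col1a1 or Dcn among SCI rats. The part of this level in these folds was not tested.

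Of 25 genes of collagens and their cross-linking, 16 rose, and 8, 9 and 9 did without Sham replicate 2, SCI replicate 2 and SCI replicate 3. Col4a1, a basement membrane collagen, was at 78.8, 123 and 123 CPM in the Sham rats and 171, 274 and 234 CPM in the SCI rats. Its log2FC of 1.06 was 0.88 without Sham replicate 1 and 0.90 without SCI replicate 2. Loxl1, a cross-linking enzyme, was 5.34-fold higher and lost its call in 4 of the 6 fits, without Sham replicate 2 or any SCI rat (adjusted p 0.067 to 0.133). Lox, the founding enzyme of the family, overlapped between the groups (2.63 ± 2.35 and 5.68 ± 3.58 CPM, SD, n = 3 each).

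Metalloproteinases changed gene by gene. Of 23 genes of metalloproteinases and their inhibitors, 8 rose and 1 fell (2 without Sham replicate 3). Mmp12, macrophage elastase (files: chromosome 8 from 4581785 to 4591686), had 0 counts in every Sham rat and 1621, 4290 and 2151 counts in the SCI rats. This made it at least 963-fold higher against the floor. Mmp7 had 0 counts in the Sham rats as well and 7.44, 24.2 and 2.47 CPM in the SCI rats (at least 295-fold). Adamts4, which cleaves aggrecan, was 2.49-fold lower, at 84.6, 93.8 and 124 CPM in the Sham rats and 45.6, 45.3 and 30.3 CPM in the SCI rats. Of 22 genes of TGF-beta signalling, 9 rose, and 4, 5 and 4 did without Sham replicate 2, SCI replicate 2 and SCI replicate 3. Tgfb1, the ligand, was at 11.4, 15.8 and 24.3 CPM in the Sham rats and 77.3, 97.2 and 77.1 CPM in the SCI rats (log2FC 2.29, SE 0.28). Tgfbr2, its receptor, was 2.56-fold higher and lost its call without those same 3 libraries (adjusted p 0.0566 to 0.0679). Ltbp2, a latent-complex protein, was 8.15-fold higher, with an adjusted p of 0.0501 without Sham replicate 2. Sost, an inhibitor of Wnt and BMP signalling known from bone, was at 0.142, 0 and 0.0227 CPM in the Sham rats and 9.66, 23.3 and 19.1 CPM in the SCI rats.

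Vessel genes did not move together. Of 16 tested endothelial genes, 1 rose and 2 fell. Leaving out SCI replicate 1 gave 3 lower genes. Pecam1, the adhesion molecule of endothelial cells, was at 26.2, 19.7 and 20.1 CPM in the Sham rats and 21.3, 23.4 and 24.9 CPM in the SCI rats, with an interval of its log2FC from -0.27 to 0.42. Cldn5, the tight junction protein of the barrier, was not called either (interval -0.13 to 0.63). Cdh5, the junctional cadherin, was 2.43-fold higher, and Slco1c1, the thyroid hormone transporter of the barrier, 2.19-fold lower. Cdh5 lost its call without Sham replicate 1 or 2 or SCI replicate 2 or 3, and Slco1c1 without Sham replicate 1 or SCI replicate 2 or 3. The adjusted p values in these fits were 0.0222 to 0.0881. The log2FC lay between 0.96 and 1.25 for Cdh5 and between -1.11 and -0.81 for Slco1c1. No endothelial gene was called higher in those 4 fits for Cdh5, and the lower count was 0, 1 and 0 without Sham replicate 1, SCI replicate 2 and SCI replicate 3. Of 13 genes of pericytes and smooth muscle, 6 rose. Pdgfrb, the receptor of pericytes and scar fibroblasts, was at 23.8, 34.9 and 57.0 CPM in the Sham rats and 88.5, 112 and 107 CPM in the SCI rats. Anpep, an aminopeptidase of pericytes and myeloid cells, was 10.7-fold higher, and Acta2, smooth muscle actin, had a log2FC of 0.98, just under the threshold.

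Of 18 genes of ependymal cells and motile cilia, 8 rose and none fell. The higher count was 4 or 5 without Sham replicate 1, 2 or 3 or SCI replicate 2 or 3, and 12 without SCI replicate 1. In the fits without Sham replicate 3 or SCI replicate 1 or 2, 1 gene was called lower. Rarres2, which encodes chemerin, was 5.06-fold higher, and Dnah9, an axonemal dynein, overlapped between the groups (log2FC 0.52, adjusted p = 0.113). Of 22 cell cycle genes, 12 rose and none fell, with low levels in both groups. Mki67, the proliferation antigen, was at 1.90, 3.59 and 3.78 CPM in the Sham rats and 9.18, 9.43 and 8.03 CPM in the SCI rats. Top2a and Ube2c, which act in mitosis, were 3.83-fold and 4.15-fold higher.

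Schwann cell genes were moderately higher. Of 18 tested, 6 rose and none fell (median log2FC 0.86), with 3 called without SCI replicate 2 and 3 without SCI replicate 3. Pmp22, a membrane protein of peripheral myelin, had a log2FC of 0.84, under the threshold, with no overlap of the groups. Plekha4, a membrane-binding protein, was 3.83-fold higher. Pou3f1, a factor of promyelinating Schwann cells, and Egr2, the master factor of peripheral myelin, chosen after their values were seen, were 3.04-fold and 2.73-fold higher. Egr2 lost its call without Sham replicate 3 or SCI replicate 2 or 3 (adjusted p 0.0614 to 0.0933).

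Tissue outside the cord differed between single libraries. The 20 tested skeletal muscle genes summed to 210, 296 and 207 CPM in the Sham rats and 5173, 186 and 1789 CPM in the SCI rats, so SCI replicate 2 was below all Sham rats. Of these genes, 16 were called higher, and 3, 3, 3, 4 and 6 were without Sham replicates 1, 2 and 3 and SCI replicates 1 and 3. Acta1, skeletal actin, was at 974, 1.14 and 380 CPM in the SCI rats and 3.47 to 13.7 CPM in the Sham rats. Its call was lost in those same 5 fits (adjusted p 0.0807 to 0.109). Tnni1, a slow troponin, was at 30.9, 0.564 and 37.3 CPM in the SCI rats and at most 0.364 CPM in the Sham rats. Myl2 and Csrp3, also of slow muscle, were high in SCI replicates 1 and 3 alone, at 37 to 45.6 CPM and 10.8 to 26.4 CPM. The folds of muscle genes therefore rested on 2 libraries. Of 9 tested genes of sensory ganglion neurons, 4 fell. Their summed level was 20.1, 348 and 16 CPM in the Sham rats and 17.1 to 18.9 CPM in the SCI rats. Scn10a, a sodium channel of nociceptors, was at 55.4 CPM in Sham replicate 2 and at most 0.842 CPM in the other 5 libraries. Pirt, a gene of nociceptors among the 10 lowest DEGs by log2FC, was at 62.0 CPM in Sham replicate 2, against 1.03 to 1.42 CPM in the other Sham rats. Scn10a lost its call without Sham replicate 2 (log2FC -1.38) or any SCI rat, and Pirt did without any SCI rat (adjusted p 0.0834 to 0.27 for both genes). Without Sham replicate 2, 2 genes of the list were called lower and 1 higher, and without any SCI rat 0 were called.

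**Figure D5:**
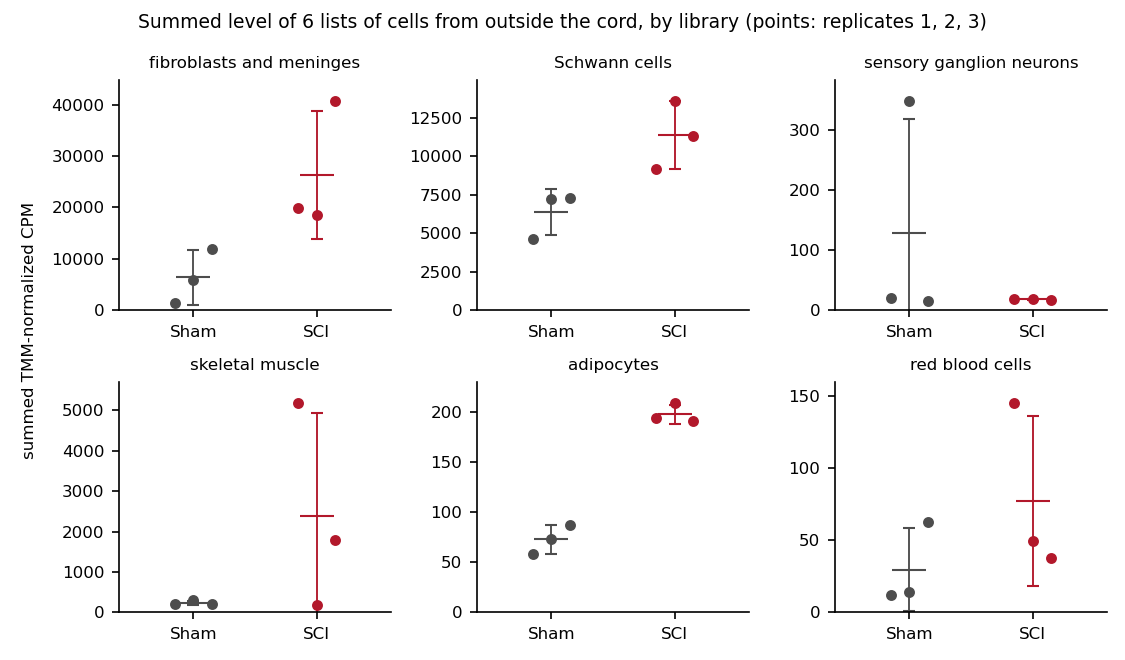
Summed TMM-normalized CPM (y axis, linear from 0) of 6 lists of cells from outside the cord in each library (points in the order of replicates 1, 2 and 3), with the mean and SD (bars end at 0). Fibroblasts and Schwann cells can also be part of the lesion, and these sources cannot be told apart here. Skeletal muscle is high in SCI replicates 1 and 3, sensory ganglion genes are high in Sham replicate 2 alone, and the fibroblast and meninges list is higher in all SCI libraries.

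Of 7 tested adipocyte genes, 4 rose. Fabp4, a fatty acid carrier of fat cells, macrophages and capillaries, was at 0.364, 0.409 and 0.171 CPM in the Sham rats and 23.4, 22.9 and 33.2 CPM in the SCI rats, 84.3-fold higher with no overlap. Adipoq, the defining hormone of fat cells, was at 0.298 CPM or less in every library and was not tested. Red blood cell genes were low, at 12.1 to 62.6 CPM in sum in the Sham rats and 37.6 to 145 CPM in the SCI rats, and 1 of 5 tested was called, with 3 called without Sham replicate 3. The called gene, the globin gene Hba-a3, had log2FC 2.66 and lost its call without Sham replicate 1 or 2 or SCI replicate 1 (adjusted p 0.0638 to 0.0929). Alas2, the first enzyme of haem synthesis in red cells, overlapped between the groups.

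Few genes of energy metabolism were called, and most were not shown to be level. Of 51 nuclear genes of the respiratory chain, 1 fell and none rose (median log2FC -0.10), against 26.9% of all genes called. The 95% interval lay within 0.5 of 0 for 10 of the 51, against 13.9% of all genes. Without SCI replicate 2 or 3, 1 gene was called higher. Cox4i1, a subunit of cytochrome c oxidase, was at 520, 443 and 450 CPM in the Sham rats and 638, 437 and 535 CPM in the SCI rats. Uqcrc2, a core subunit of complex III, was the gene that fell, at 190 ± 12.4 and 84.3 ± 5.45 CPM (SD, n = 3 each). Ndufa1 of complex I was 1.40-fold higher and under the threshold. None of 10 mitochondrially encoded genes was called, with log2FC between -0.30 and 0.24, and none had an interval within 0.5 of 0. These genes summed to 121297 CPM in the Sham and 107125 CPM in the SCI group on average. The sum varied among SCI rats, at 149876, 97112 and 74387 CPM. Mt-co1 was at 50060 ± 8323 and 40676 ± 15540 CPM (SD, n = 3 each), and its interval of -1.17 to 0.57 does not exclude a change of 2-fold in the lower direction.

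Genes of neuronal activity and repair were mixed. Of 12 tested immediate early genes, 1 rose and 1 fell, with 3 or 4 higher calls without Sham replicate 2 or SCI replicate 1 or 2 and 0 without Sham replicate 1 or SCI replicate 3. Fos was at 16.4, 15.7 and 12.2 CPM in the Sham rats and 20, 17.5 and 35.9 CPM in the SCI rats, without overlap and not called (log2FC 0.73, SE 0.29, adjusted p = 0.0749). Egr1 had log2FC -0.03 (interval -0.47 to 0.41). Arc, a gene of excitatory synapses, was 2.94-fold lower. Nr4a2, an orphan receptor, had a log2FC of 1.01, which was 0.87 to 0.99 without Sham replicate 1 or 2 or SCI replicate 3. Of 13 tested genes of axon regeneration, 4 rose and 2 fell (4 fell without SCI replicate 1 or 2 and 1 without SCI replicate 3). Atf3, an injury-induced transcription factor, was at 3.30, 4.33 and 6.56 CPM in the Sham rats and 43.2, 43.4 and 54.5 CPM in the SCI rats, 9.93-fold higher. Socs3, a brake on cytokine signalling that the list also holds, was chosen after its values were seen and was 6.14-fold higher. Stmn2, a growth cone protein of neurons, was 3.58-fold lower, and Gap43 was 1.62-fold lower and under the threshold. Of 20 tested neurotrophic factors and receptors, 1 rose and 4 fell. Bdnf was 2.69-fold lower. Ntrk2, the receptor of BDNF, which astrocytes also express, was at 385 ± 26.8 and 380 ± 71.1 CPM (SD, n = 3 each). The counts of this list went to 2, 2 and 4 higher genes without Sham replicates 1, 2 and 3, and to 2 lower genes without SCI replicate 1 or 3.

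Hox genes, which keep the positional identity of cord segments, were mostly not called. Of 22, 1 rose and 4 fell (median log2FC -0.39). Hoxa5 and Hoxa7 had log2FC of -0.21 and -0.74. Hoxb9 was 4.50-fold lower, at 12.7, 8.30 and 4.62 CPM in the Sham rats and 1.14, 2.95 and 1.61 CPM in the SCI rats. Hoxc5 was 2.21-fold higher, with log2FC 0.98 without Sham replicate 1. Without Sham replicate 1, 2 Hox genes were called lower and 0 higher, and 2 were higher without Sham replicate 2 or 3 or SCI replicate 1.

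Some of the genes with the largest folds belonged to no list. Krt6a-ps2, listed under a keratin pseudogene symbol (files: chromosome 7 from 132740198 to 132743815), had 0 counts in the Sham rats and 25.8, 37.1 and 24 CPM in the SCI rats, at least 752-fold higher. Its reads may belong to a near-identical keratin gene, so the symbol is uncertain. Klra17, of the killer cell lectin-like family with many close copies, was 84.6-fold higher. Among lower genes, Tmem132b, a transmembrane protein of neurons, was at 10.8, 13.2 and 9.18 CPM in the Sham rats and 0.451, 0.254 and 0.355 CPM in the SCI rats (log2FC -4.96, SE 0.29). Rph3a and Pacsin1, both of presynaptic terminals, were 17.6-fold and 17.2-fold lower, and Scrt1, a neuronal zinc finger factor, and Sez6l, a neuronal membrane protein, 13.5-fold and 13.2-fold lower. The gains in counts outside the lists named so far were in Cst3, a secreted protease inhibitor (2.48-fold higher), and Tmsb4x, an actin-binding peptide (2.52-fold higher).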

How the data were processed

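mRNA of the T9 to T11 cord was selected with oligo(dT) and sequenced, and all libraries carry the same batch label. The submitters' processing notes name fastp 0.23.2, HISAT2 2.2.1 and build mRatBN7.2, and the counting tool is not given in the sources used here. The authors deposited raw read counts per gene row and FPKM, scaled to gene length and library size by a program not given in the sources used here. In these tables, 494 identifiers fill 1081 rows, so their counts are uncertain. Rows were filtered with filterByExpr, and the 6 libraries were normalized by TMM and tested with the quasi-likelihood test of edgeR 4.0.16 (R 4.3.3), with Benjamini-Hochberg adjustment. SE was |log2FC| over the square root of F. Alternatives used DESeq2 1.42.0 and limma 3.58.1 (log2 of FPKM plus 1 or 0.1), other filters, all 9 libraries, the replicate number as a block, and each library left out. Each group was 3 rats, for which an exact permutation test cannot go below p = 0.1, so none was used. Scripts were tested on simulated data.

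The 49 gene lists (882 of 934 symbols in the files) and the members were chosen with earlier results of these data known. Named genes were the first 2 of each list, the called gene of largest change in each direction without overlap and at 1 CPM or more, the 10 largest changes in each direction at 10 CPM or more, and the 10 largest gains and losses of CPM. A further 40 genes were chosen after their values were seen. Floors and counting limits cover counting error only. Promoters were from RefSeq (GRCr8), and no coordinates were converted between builds. Some genes of the lists are not reported here.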

Additional observations from a re-analysis of the deposited data

How the results depend on the processing

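The count of 4800 DEGs stayed within 1.5 times under DESeq2 (5237), DESeq2 size factors (4799), no filter (4717), at least 10 counts in every library (4359), all 9 libraries in 1 fit (5080), removal of muscle and adipocyte genes (4782), summed rows of 1 identifier (4718) and limma on log2(FPKM + 0.1) (4642). With limma on log2(FPKM + 1), 2649 genes were called (1397 higher, 1252 lower), and 2550 with no filter (1315 and 1235). A pseudocount of 1 shrinks the change of low genes by construction. Without the fold threshold, 8796 genes were called (4334 and 4462). Leaving out 1 library gave 3908 to 5108 DEGs, with 1839 to 2561 higher and 2053 to 2547 lower. Of 168 named genes with a call, 33 lost it without at least 1 library, and no called gene changed sign under the edgeR and DESeq2 alternatives run. The genes without a call P2ry12, Pecam1, Avil, Abcg1, Egr1, Ntrk2, Mt-nd1 and Gja1 changed sign in at least 1 of these. Of list medians, that of the nuclear respiratory chain went from -0.10 to 0.05 without Sham replicate 1 and 0.02 without SCI replicate 2, and that of the mitochondrial one from -0.10 to 0.03 without Sham replicate 1 and 0.07 without SCI replicate 3. Over all these alternatives, leave-one-out fits included, 2800 values of named genes kept their side of the threshold, 101 (34 genes) fell short of it and 23 (9 genes) passed it. Of the list medians, 589 moved by no more than the spread of the list among the SCI replicates and 95 (30 lists) by more. The spread among Sham replicates was not used for this.

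The replicate number as a block gave 4656 DEGs (2321 and 2335). The correlations of same-numbered libraries were 0.145, -0.0931 and 0.115. SCI replicates 1 and 3 correlated best with the Sham library of their own number, replicate 3 by little (0.113 with Sham replicate 2). SCI replicate 2 correlated best with Sham replicate 3 (0.0546). As no correlation was above 0.145, the numbers were not taken to pair the rats. Under the block, S100a9, Scn10a, Acta1, Hba-a3, Nlrp3 and Mb lost their calls. Counts under 3 per library cannot be read as levels.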

Other observations

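Ribosomal protein genes, a list chosen after their values were seen, were higher after SCI. Of 61 tested, 40 rose and none fell, all 61 had a log2FC above 0 and 60 had an adjusted p under 0.05 by edgeR's test (median log2FC 1.08, from 0.46 for Rpl21 to 1.51 for Rpl12). Together they summed to 12897, 12109 and 13071 CPM in the Sham rats and 28364, 23548 and 27559 CPM in the SCI rats. Rplp0, of the large subunit stalk, was at 468, 491 and 541 CPM in the Sham rats and 1326, 1217 and 1435 CPM in the SCI rats. Leaving out each library gave 31 to 44 calls. Many of these genes have near-identical copies elsewhere in the genome, so single members are uncertain.

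Families formed from the stems of gene symbols, also chosen after the values were seen, differed in their share of DEGs. Of 26 tested Clec genes, which encode C-type lectins, 18 rose (median log2FC 1.82), as did 37 of 73 Cd genes and 21 of 50 Il genes, against 13.4% of all genes. Of 22 Cdh genes, the cadherins, 13 fell (median log2FC -1.12), and of 54 Gpr genes 19 fell, against 13.6% of all genes. Among transcription factors as the files class them, Spi1, which encodes PU.1, was at 6.31, 7.79 and 11.7 CPM in the Sham rats and 70.5, 76.1 and 54.9 CPM in the SCI rats. Cebpb, a factor of myeloid cells, was 4.22-fold higher. Both genes were higher in all 3 SCI rats than in any Sham rat, and 63.5% of all genes tested had no overlap.

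Within the interferon list, Ifit1 went apart from the rest. It had 208, 236 and 718 counts in the Sham rats and 687, 12 and 12 counts in the SCI rats, and it was not called (adjusted p = 0.719). Among the SCI rats, only replicate 1 had more than 12 counts. Mx1 was at 2.18, 2.54 and 11.1 CPM in the Sham rats and 25.4, 62.1 and 23.2 CPM in the SCI rats, and it lost its call without Sham replicate 1 or 2 or SCI replicate 2 (adjusted p 0.0502 to 0.0689). Ifit1, Mx1, Spi1, Cebpb and Rplp0 were chosen after their values were seen.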
